A study of Mus musculus with 6 samples.

Results

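A set of 9 genes that act in or answer to JAK-STAT signalling were followed in bulk RNA sequencing of mouse MLL-AF9 leukemia: the feedback inhibitors Socs1, Socs2, Socs3 and Cish, the kinases Pim1 and Pim2, and the transcription factors Stat3, Stat5a and Stat5b. They were taken by name from a deposited count table, in which all 9 of the 9 names were found among 56748 genes. The study compared leukemia cells with the genotype Rbm5 KO (3 libraries, numbers 31, 32 and 40) and Rbm5 WT (3 libraries, numbers 25, 27 and 29). All 6 carry the label MLL-AF9, the oncogene formed when the MLL and AF9 genes join. RBM5 takes part in pre-mRNA splicing, and the series asked how it acts on the self-renewal program of this leukemia. The labels give neither the Rbm5 allele nor the strain or age of the animals, and they describe the source both as whole marrow and as cultured cells. The protocol speaks of independent replicates without saying whether each is a separate animal, so p-values measure the spread between these libraries.

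Cytokines such as G-CSF, GM-CSF, IL-3 and IL-6 bind receptors that carry Janus kinases (JAKs), which phosphorylate STAT proteins. The phosphorylated STATs pair, enter the nucleus and switch on target genes, among them Cish and the Socs genes, whose SH2-domain proteins then block the receptor or the kinase. PIM kinases are further STAT-induced products that favour survival and growth, and in myeloid cells STAT3 and STAT5 carry much of the signal for granulocyte production and for the expansion of progenitors.

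STAT dimers recognise the letters TTCNNNGAA, which read the same on both strands. Promoter windows from RefSeq (GRCm38.p6, 300 bases around each annotated start) were found for 8 of the 9 genes, 11 windows in all, and the letters occurred in the windows of Cish and Socs3. Those stretches are printed here because both genes varied widely between libraries of one label, with the matches in capitals.

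Cish, chr9:107296649-107296678, plus strand: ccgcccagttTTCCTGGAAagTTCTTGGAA

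Socs3, chr11:117969501-117969530, minus strand: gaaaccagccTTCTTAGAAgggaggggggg

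Cish held 2 matches, at bases 1 to 9 and 12 to 20 counted from the annotated start, and Socs3 held 1, at -154 to -146. Bases after the annotated start were looked up in transcripts of the same gene, and were found for 9 of the 11 windows. They were not found for Socs3 and for a Stat5b window, so the Socs3 position relative to its start is less certain. Of 32851 promoter windows of this length, 8.3% held at least 1 match and 0.457% held 2 or more. A match describes letters only, and no binding was measured here.

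Total counts were 26359299 to 31807588 per library. The knockout label did not go with less Rbm5, with 173.6 to 227.5 CPM in wild type and 245.3 to 269 CPM in knockout (log2 fold change 0.34, edgeR adjusted p = 0.107). The directions below therefore rest on the labels, and the table's 1 count per gene cannot show the loss of single exons. All 4 Y-linked genes examined were at 0 CPM in each wild-type library and at 19.6 to 135.3 CPM in the knockout libraries, so sex and label cannot be told apart. Markers of mature neutrophils were higher in knockout, with 9 of 13 past the test and 13 of 13 not overlapping between groups. Their summed level was 652.9 to 2438 CPM in wild type and 9649 to 17174 CPM in knockout. Monocyte and macrophage markers summed to 1679 to 2600 and 3544 to 5685 CPM, with 3 of 12 past the test. Over all tested genes, 8.57% passed the same test and 33.7% did not overlap between groups. Hemoglobin and other erythroid markers summed to only 1.71 to 5.91 CPM in any library, and B-cell markers to 9.90 to 30.2 CPM, although the labels name whole bone marrow. The 8 genes listed for leukemic progenitors went both ways, with 3 positive and 5 negative estimates, a median log2 fold change of -0.10, and 1 called lower (Hoxa9) and 1 higher (Itgam). Their summed level was 2282 to 3228 CPM in wild type and 3195 to 4463 CPM in knockout. In bulk RNA, more cells of a type and more RNA per cell cannot be told apart.

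Levels below are CPM, counts scaled to a common library size after TMM scaling, and differences are log2 fold changes, knockout minus wild type. A gene was called where edgeR's quasi-likelihood test gave a Benjamini-Hochberg adjusted p under 0.05 over all 15963 genes tested. All 9 members passed the low-count filter. Of them 1 rose (Stat3), 0 fell and 8 did not pass, where 8.57% of all tested genes were called (5.45% higher and 3.12% lower). With total counts as the only scaling, 597 genes were called higher and 682 lower, against 870 and 498 with TMM. That scaling moved the median of all genes from -0.01 to -0.13, and Stat3 still passed. At an unadjusted p under 0.05 there were 4 of the 9 members and 4293 of the 15963 tested genes, and the groups did not overlap for 4 (Stat3, Stat5b, Pim2 and Cish), where they did not overlap for 33.7% of all tested genes. The median log2 fold change was 0.37 over the 9 members and -0.01 over all tested genes. The members were chosen with earlier results of these data known.

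**Figure D1:**
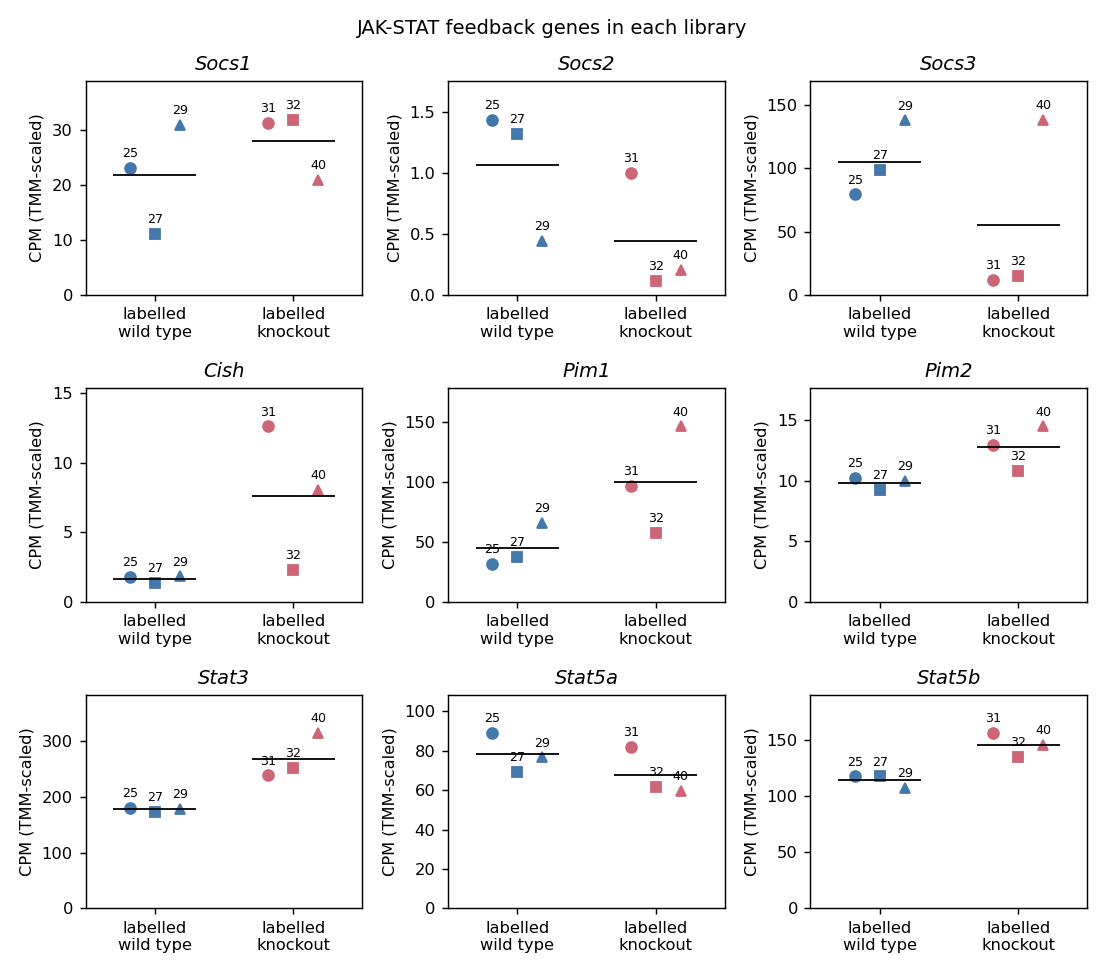
Level of each of the 9 genes (CPM, linear axis from 0, scaled separately per gene) in the 3 libraries labelled wild type (blue) and the 3 labelled knockout (red), with the library number above each point and a line at the group mean. Stat3 is higher in all 3 knockout libraries, whereas Socs3 is low in knockout libraries 31 and 32 and, at 138.7 CPM, level with the highest wild-type library in knockout library 40.

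Stat3, which carries signals of IL-6 and G-CSF, was the member called. Its gene lies on chromosome 11 from 100775924 to 100830366 (minus strand) as the table gives it, with the build unnamed. It stood at 180.6, 173.9 and 178.4 CPM in wild-type libraries 25, 27 and 29 and at 238.7, 252.8 and 314.6 CPM in the knockout libraries (31, 32, 40). The wild-type libraries lay within a few CPM of each other, and each knockout library lay above them. The means were 177.6 ± 3.40 and 268.7 ± 40.3 CPM (SD, n = 3 each), a log2 fold change of 0.60 (95% interval 0.33 to 0.87, edgeR adjusted p = 0.0240). The estimate stayed positive with any 1 library left out, ranging from 0.47 without knockout library 40 to 0.68 without knockout library 31. The call depended on the libraries. The edgeR adjusted p was 0.0585, 0.0723 and 0.0600 with wild-type library 25, 27 or 29 left out and 0.0556 without knockout library 40. It was 0.0401 and 0.0368 without knockout library 31 or 32. Stat3 and Stat5a overlap on opposite strands over 72 bases, so reads there could fall to either gene. Knockout library 40, with the most Stat3, also had the highest sum of neutrophil markers (17174 CPM). Knockout library 32 had more Stat3 than library 31 and a lower sum (9649 against 11082 CPM). In wild-type libraries 25, 27 and 29 the sum was 652.9, 1715 and 2438 CPM, each below every knockout library. The part of those cells in the Stat3 difference was not tested.

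Stat5a and Stat5b encode near-identical factors that answer to GM-CSF, IL-3 and many other cytokines. Stat5b was at 117.6, 117.7 and 107.4 CPM in wild type and at 156.2, 135.1 and 145.4 CPM in knockout. Each knockout library was above each wild-type library, yet the log2 fold change of 0.35 (95% interval 0.14 to 0.56) did not pass over all genes (edgeR adjusted p = 0.0560). Stat5a was at 88.9, 69.1 and 76.6 CPM in wild type and at 82.0, 61.8 and 59.5 CPM in knockout. Those groups overlapped, with a log2 fold change of -0.21 (95% interval -0.55 to 0.14, edgeR adjusted p = 0.416).

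The pair thus had estimates of opposite sign. Per gene length, Stat5a made up 37.0%, 31.3% and 35.6% of the summed level of both genes in wild type and 28.96%, 26.2% and 24.1% in knockout. The share averaged 34.7% ± 2.96 and 26.4% ± 2.43 (SD, n = 3 each), and the groups did not overlap. A two-sided exact permutation test over the libraries gave p = 0.10, the smallest that 3 against 3 can give, and this ratio was chosen after the counts were seen. Reads that fit both paralogs could have been split either way by the authors' counting, so each gene's level, and this share, is uncertain to that extent.

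Among the SOCS family, the log2 levels of Socs3, Socs2 and Cish spread widely over the knockout libraries (SD 1.96, 1.52 and 1.28), against 0.34 for Socs1. Over the wild-type libraries the SD was 0.40, 0.93 and 0.25 for these genes and 0.76 for Socs1. Cish encodes CIS, a feedback inhibitor of STAT5-activating receptors. It drew 60, 38 and 57 counts from the wild-type libraries (25, 27, 29) and 339, 59 and 196 from the knockout libraries (31, 32, 40). As levels these were 1.76, 1.32 and 1.81 CPM against 12.6, 2.25 and 8.01 CPM. Knockout libraries 31 and 40 stood far above wild type, while library 32 lay just above the highest wild-type value. The means were 1.63 ± 0.2702 and 7.62 ± 5.19 CPM (SD, n = 3 each), and the log2 fold change was 2.22 (95% interval 0.89 to 3.55). It did not pass over all genes (edgeR adjusted p = 0.0543). Without knockout library 32 it did, at 2.66 (edgeR adjusted p = 0.00953), and without any other single library the adjusted p was 0.125 to 0.151.

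Cish lies on chromosome 9 (107173225 to 107179983, plus strand, in the table's coordinates), 437.6 kb from Rbm5. The 18 tested genes between them had a median log2 fold change of 0.29, against -0.01 over all tested genes. Of the 18, 2 were called, both higher, where 8.57% of all tested genes were called (5.45% higher). The part of this closeness to the targeted gene in the Cish values was not tested.

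Socs3, the main brake on IL-6 and G-CSF receptors, was the least uniform. It lies on chromosome 11 from 117856905 to 117860873 (minus strand) in the same coordinates. Wild-type libraries 25, 27 and 29 had 2700, 2850 and 4351 counts, and knockout libraries 31, 32 and 40 had 317, 390 and 3394. These correspond to 79.4, 99.0 and 138.0 CPM in wild type and 11.8, 14.9 and 138.7 CPM in knockout. Knockout libraries 31 and 32 were thus below every wild-type library, and library 40 matched the highest of them. The log2 fold change of -0.94 had an interval from -3.36 to 1.48 and did not pass (edgeR adjusted p = 0.594). Without knockout library 40 it was -2.98 (edgeR adjusted p = 0.0118), and with either of the others left out it was between -0.46 and -0.49 (adjusted p = 0.815 and 0.791). Of 2358 other tested genes within 0.5 of its mean log2 CPM, 1 had a larger SD over the knockout libraries.

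The uneven Socs3 values went beside uneven levels of other genes. Immediate early and stress genes, which respond to handling, summed to 4032, 3508 and 9949 CPM in wild type and to 7607, 7499 and 20360 CPM in knockout, in the same library order, and 0 of these 11 genes were called by edgeR (4 at an unadjusted p under 0.05). Wild-type library 29 and knockout library 40 were the highest of their groups for both this sum and Socs3. Knockout libraries 31 and 32 exceeded wild-type libraries 25 and 27 in the sum and lay below them in Socs3. Osm, the gene of the STAT3-activating cytokine oncostatin M, was at 23.2, 13.7 and 35.9 CPM in wild type and 36.7, 31.3 and 207.6 CPM in knockout, again highest in library 40. The part of handling or of any one library's cell makeup in the Socs3 values was not tested.

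Socs1, an inhibitor of JAK kinases best known for restraining interferon signals, was at 23.2, 11.2 and 31.1 CPM in wild type and 31.4, 31.96 and 20.9 CPM in knockout. Its groups overlapped (log2 fold change 0.37, 95% interval -0.50 to 1.23, edgeR adjusted p = 0.570). Socs2, which restrains growth hormone signalling, was scarce, with 49, 38 and 14 counts in wild type and 27, 3 and 5 in knockout. Its log2 fold change of -1.26 had an interval from -3.11 to 0.59 (edgeR adjusted p = 0.355), so neither direction could be told. The family held 2 positive and 2 negative estimates, and 0 of 4 were called by edgeR, with 1 (Cish) at an unadjusted p under 0.05. Cish was called by DESeq2 but not by limma-voom (log2 fold change 1.90, limma-voom adjusted p = 0.130).

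Pim1, a survival kinase induced by STAT3 and STAT5, was at 31.1, 37.5 and 65.6 CPM in wild-type libraries 25, 27 and 29 and 96.3, 57.5 and 146.2 CPM in the knockout libraries, in the order 31, 32, 40. Knockout library 32 fell below wild-type library 29, so the groups overlapped. The log2 fold change of 1.16 (95% interval 0.12 to 2.20) did not pass over all genes (edgeR adjusted p = 0.151), and it ranged from 0.78 without knockout library 40 to 1.54 without wild-type library 29. Within each group the library with the highest sum of immediate early genes, 29 or 40, also had the most Pim1. Pim2, a related kinase on the X chromosome, was at 10.2, 9.27 and 10.02 CPM in wild type and 13.0, 10.8 and 14.5 CPM in knockout. Its groups did not overlap, with a log2 fold change of 0.38 (95% interval -0.04 to 0.79, edgeR adjusted p = 0.227). Since sex and label go together here, a sex difference in this X-linked gene cannot be told apart from the label.

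**Figure D2:**
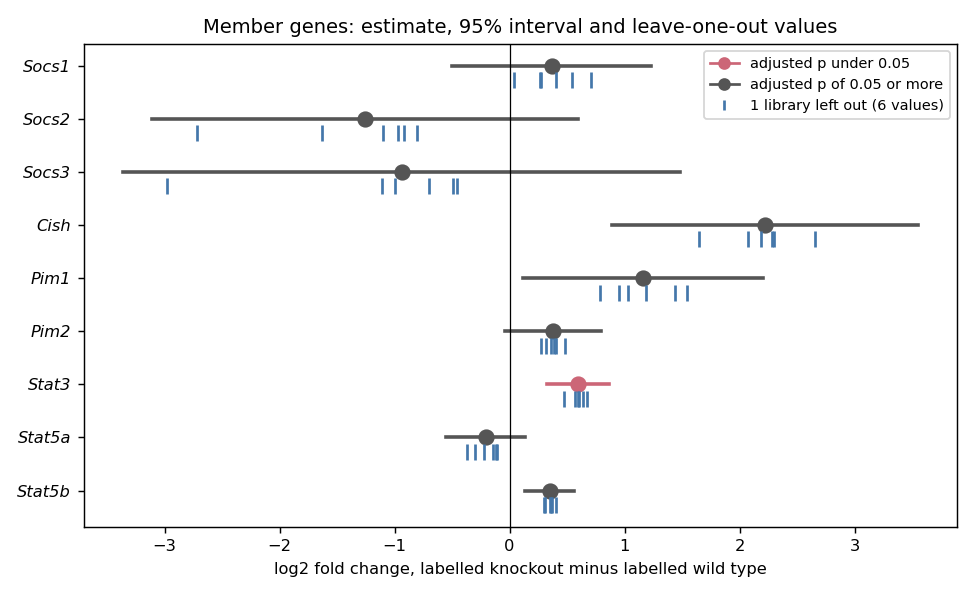
Log2 fold change, labelled knockout minus labelled wild type, of each member (dot) with its 95% interval (line) from edgeR's fit to 3 libraries per group, and the 6 values obtained with 1 library left out (blue ticks below). Stat3 (red) is the called gene, and the isolated tick at -2.98 for Socs3 is the value without knockout library 40.

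Levels were compared between genes only per kilobase of the table's gene length (RPKM). In wild type the order was Socs3 (27.5 to 47.7), Stat5b (19.4 to 21.3), Stat3 (18.2 to 18.9), Pim1 (9.26 to 19.5), Stat5a (9.69 to 12.5), Socs1 (3.83 to 10.7), Pim2 (3.32 to 3.65), Cish (0.206 to 0.282) and Socs2 (0.0466 to 0.151). Neighbours overlapped for Stat3 and Pim1, Pim1 and Stat5a, and Stat5a and Socs1. In knockout, mean RPKM was highest for Pim1 (29.7), Stat3 (28.2) and Stat5b (26.3), whose ranges overlapped. Socs3 followed at 19.1, with single libraries from 4.08 to 48.0, then Socs1 (9.66), Stat5a (9.50), Pim2 (4.57), Cish (1.19) and Socs2 (0.0463). Cish and Socs2 were the scarcest of the 9 in both groups.

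The 5 protein-coding genes whose profile over the 6 libraries was most like that of Stat3 were Rps6kc1, Ppard, Cyfip2, Slc66a2 and Zfp687. Their root mean square difference from Stat3, in log2 CPM centred on each gene's mean, was 0.0404 to 0.0467, among 11540 genes compared. Cyfip2, for example, went from 253 to 265.7 CPM in wild type to 361.8 to 476.1 CPM in knockout.

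Beyond the 9 members, 99 other genes of the pathway were examined in 7 lists, of which 78 were tested. Of these 22 rose, 2 fell and 54 did not pass, where 5.45% of all tested genes were called higher and 3.12% lower. Their median log2 fold change was 0.40, against -0.01 over all tested genes. The lists were chosen with earlier results of these data known, so these comparisons with all genes are descriptive only. The number called depended on the libraries: without wild-type library 25, 27 or 29 it was 10, 11 or 9, without knockout library 31, 32 or 40 it was 8, 22 or 4, and with wild-type library 25 as the lone control it was 7. With total counts as the only scaling 15 rose and 3 fell, and Jak1, Stat6, Stat2, Socs6, Ptpn1, Cbl and Csf2ra, named below, were no longer called (edgeR adjusted p = 0.0869, 0.0704, 0.0937, 0.132, 0.0635, 0.0985 and 0.0518). The neutrophil and monocyte markers given above moved with these lists, and their part was not tested.

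**Figure D3:**
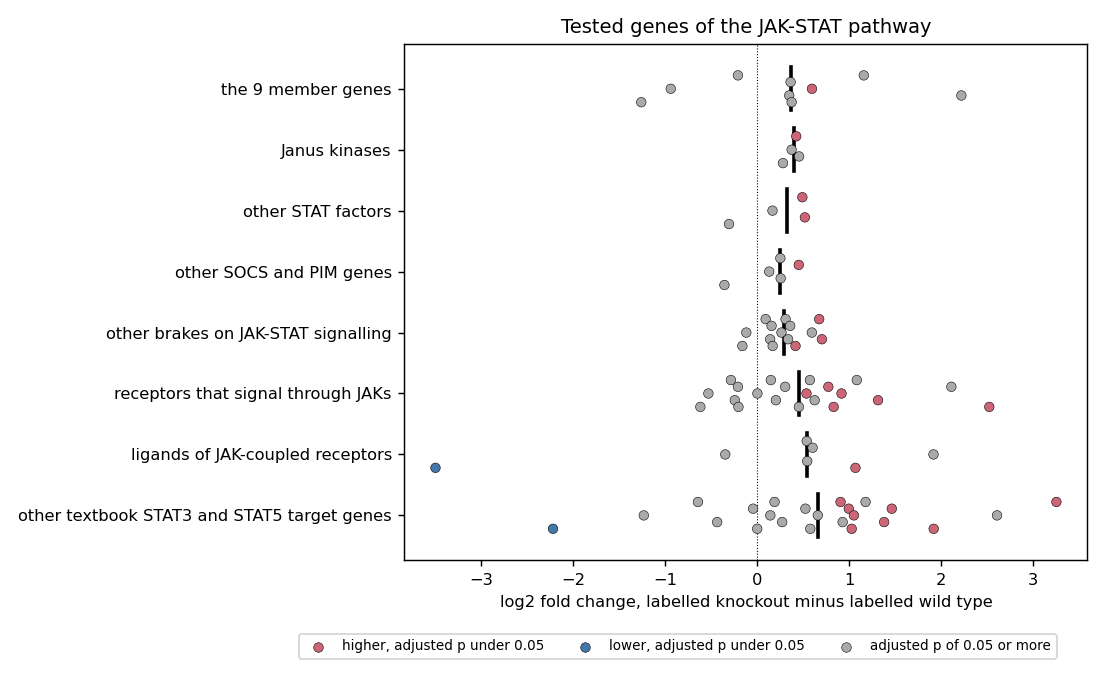
Log2 fold change, labelled knockout minus labelled wild type, of each tested gene (point) of the 9 members and of 7 lists of other JAK-STAT pathway genes, red or blue where called higher or lower by edgeR, with a bar at each list's median. Each median lies above 0, from 0.25 to 0.66, and most called genes are on the positive side. The members and lists were chosen with earlier results of these data known.

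Of the receptors that signal through JAKs, 6 of 21 tested rose, 0 fell and 15 did not pass (median 0.46). Of the 21 estimates 15 were positive and 6 negative, from -0.62 to 2.52. Csf3r, the G-CSF receptor, went from 134.3 ± 18.4 to 253.9 ± 55.4 CPM (SD, n = 3 each, log2 fold change 0.92, edgeR adjusted p = 0.0218). Csf2rb2, a beta chain for IL-3, rose from 57.3 ± 4.49 to 102.1 ± 4.48 CPM (0.83, adjusted p = 0.00467) and passed whichever library was left out, but shares much sequence with its neighbour Csf2rb. Csf2ra, the GM-CSF receptor alpha chain, rose by 0.54 and Il4ra, the IL-4 receptor, by 0.78 on the log2 scale. The highest adjusted p with 1 library left out was that without knockout library 40 for these 4 genes: 0.0784 (Csf3r), 0.0194 (Csf2rb2), 0.0735 (Csf2ra) and 0.0522 (Il4ra). Of the 6 such fits, Il4ra was called in 5, Csf3r in 2 and Csf2ra in 1. The number of receptors that rose was 3, 4 or 2 without wild-type library 25, 27 or 29 and 3, 6 or 1 without knockout library 31, 32 or 40. A lower call was made for 1 receptor without knockout library 31, with total counts alone, with upper-quartile scaling and without a low-count filter. DESeq2 called 9 receptors higher and 2 lower.

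All 4 Janus kinases had positive estimates, from 0.28 (Tyk2) to 0.46 (Jak3), and 1 was called. Jak1, the kinase shared by IL-6, interferon and gamma-chain receptors, rose from 177.5 ± 9.40 to 238.6 ± 21.2 CPM (SD, n = 3 each, log2 fold change 0.43, edgeR adjusted p = 0.0374). Among the other STAT genes, Stat6 (the IL-4 and IL-13 factor) rose by 0.49 and Stat2 (an interferon factor) by 0.52 on the log2 scale (edgeR adjusted p = 0.0359 and 0.0406). Each of these 3 genes stayed called only without knockout library 32, with the highest adjusted p, 0.116, 0.112 and 0.126, without knockout library 40.

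Of the less studied SOCS and PIM genes, Socs6, an adaptor that marks receptor kinases for degradation, rose by 0.45 on the log2 scale (edgeR adjusted p = 0.0481), and 4 of 5 did not pass. Of 14 genes listed as other brakes on the pathway, 3 rose and 0 fell (median 0.29). The list includes Sh2b1 and Ptpn11, which do not act only as brakes, and neither was called. Ptprc, which encodes the CD45 phosphatase, rose from 365.1 ± 17.8 to 595.2 ± 73.8 CPM (SD, n = 3 each, log2 fold change 0.71, edgeR adjusted p = 0.0143). Ptpn1, the phosphatase PTP1B that acts on JAK2 and TYK2, rose by 0.68 and the ubiquitin ligase gene Cbl by 0.42 (adjusted p = 0.0411 and 0.0498). Socs6 and Cbl lost the call with any 1 library left out, and without knockout library 40 the adjusted p was 0.139 and 0.142, with 0.0539 for Ptprc, called in 5 of the 6 fits, and 0.121 for Ptpn1, called in 2. The number of these brakes that rose was then 0, and it was 1 when wild-type library 25 or 29, or knockout library 31, was left out.

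Most ligand genes were not transcribed enough to be tested, with 7 of 20 tested and 3 (Il3, Il13 and Thpo) at 0 counts in each library. Il15, which signals through JAK1 and JAK3, rose from 8.99 ± 1.92 to 18.9 ± 1.38 CPM (SD, n = 3 each, log2 fold change 1.07, edgeR adjusted p = 0.0204, and 0.0669 without knockout library 40). Ctf1, a cytokine of the IL-6 family, fell from 0.630 ± 0.275 to 0.0519 ± 0.0581 CPM (edgeR adjusted p = 0.0433). It stayed called in 1 of the 6 fits with a library left out: the adjusted p was 0.0647, 0.119 and 0.0934 without wild-type library 25, 27 or 29, and 0.0984 and 0.156 without knockout library 31 or 40. Il15 also lost the call without wild-type library 27 (adjusted p = 0.0560) or knockout library 31 (0.0640).

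Other textbook targets of STAT3 and STAT5 had 8 of 23 tested genes that rose, 1 that fell and 14 that did not pass (median 0.66). Of the 23 estimates 18 were positive and 5 negative, and DESeq2 called 10 higher and 2 lower. Ccnd3, a D-type cyclin, rose from 168.2 ± 10.3 to 343.2 ± 48.0 CPM (SD, n = 3 each, log2 fold change 1.03, edgeR adjusted p = 0.00498). Cebpd, a transcription factor of granulocyte maturation, rose from 57.6 ± 8.45 to 119.6 ± 26.01 CPM (1.05, adjusted p = 0.0164), and both stayed called whichever library was left out. Lrg1, a secreted protein stored in neutrophil granules, rose from 1.80 ± 1.51 to 17.2 ± 6.00 CPM (3.25, adjusted p = 0.0276, and 0.0856 without knockout library 40). The cyclin gene Ccnd2 fell, with 29.6, 67.1 and 55.8 CPM in wild type and 7.18, 14.9 and 10.7 CPM in knockout (-2.22, adjusted p = 0.0221, and 0.0958 without knockout library 40). Lrg1 and Ccnd2 were each called in 3 of the 6 fits with a library left out. The number of targets that rose was 3, 4 or 5 without wild-type library 25, 27 or 29, and 3, 8 or 3 without knockout library 31, 32 or 40. These genes answer to other pathways too. Markers of mature neutrophils were also higher in knockout, and the part of those cells in these values was not tested.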

How the data were processed

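RNA was extracted with TRIzol and sequenced by a commercial company, per the labels' protocols. The values analysed are unnormalized counts, 1 whole number per gene and library, as deposited by the authors for 6 libraries. Per the submitters' processing notes, Salmon, limma, GRCm38 and mm10 were used, without roles. Whether strand was used: not given in the sources used here. Of 52073 gene identifiers shared with GENCODE M21 (GRCm38), 2.85% had the same start, so the table's coordinates carry no build name here. The table's gene length, in other units than counts (bases), was deposited by the authors and used only for RPKM.

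Genes were filtered with filterByExpr (minimum count 10, minimum total 15), TMM-scaled, and fitted without covariates by the robust quasi-likelihood method of edgeR 4.0.16 under R 4.3.3. Alternatives included DESeq2 1.42.0 and limma-voom (limma 3.58.1). The procedure was tested on simulated data. No 2 libraries were alike within sampling noise (lowest chi-square per degree of freedom 45.4). All 9 members were named whatever their values. Of each list, up to 4 called genes with the smallest p were named, and Osm, Jak3 and Tyk2 were added after their values were seen. The members and lists were chosen with earlier results of these data known. The nearest profiles to Stat3, the member with the smallest p, used log2 CPM with a prior count of 0.5 and genes with a mean of at least 1 CPM.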

Additional observations from a re-analysis of the deposited data

How the results depend on the processing

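The 9 members and the called genes named from the 7 lists, 26 in all, were followed under the alternatives run. None of the 26 changed the sign of its fold change. Rbm5, Jak3, Tyk2, Osm, single marker genes and the nearest-profile genes were not followed by name. The marker sums and Stat5a share were not recomputed. With total counts as the only scaling the balance of all calls turned from 870 higher and 498 lower to 597 and 682. The comparison of all genes called 1368 genes, and 2607 with DESeq2, which shared all 1368, 347 to 1227 with 1 library left out and 453 against wild-type library 25 alone. Of the 9 members 1 was called (Stat3), and 2 without a low-count filter (Cish and Stat3), 4 with DESeq2 (Cish, Pim1, Stat3 and Stat5b, with DESeq2 adjusted p of 7.26e-04, 0.00979, 5.22e-04 and 0.0175), 0 to 2 with 1 library left out and 0 against wild-type library 25 alone. The member called without knockout library 40 was Socs3. Pathway genes called numbered 24, 18 with total counts alone (which ended 7 of the named calls), 35 with DESeq2, 4 to 22 with 1 library left out and 7 against wild-type library 25 alone. The median log2 fold change of the members ranged from 0.25 to 0.40. The Socs3 estimate of -0.94 was -1.87 with limma-voom (adjusted p = 0.150). Against wild-type library 25 alone the Stat3 adjusted p was 0.184. Of 18 named genes called, 3 (Csf2rb2, Ccnd3 and Cebpd) stayed called whichever single library was left out. The causes were not tested. Fewer libraries leave fewer degrees of freedom, and the lone wild-type library is assumed to vary like the knockout libraries. No paired analysis was possible because the groups share no replicate numbers. Socs2 had the fewest counts of the members, 3 to 49 per library.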

Other observations

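Genes with profiles near those of Cish and Socs3 were looked up after their values had been seen, with the measure used for Stat3. The 5 nearest to Cish were Ggt1, Rsad2, Il1rn, Ube2l6 and Cacna1e, with root mean square differences of 0.335 to 0.398 in centred log2 CPM. Il1rn, which encodes the interleukin-1 receptor antagonist, was at 5.18, 7.01 and 6.18 CPM in wild-type libraries 25, 27 and 29 and at 31.9, 10.2 and 27.4 CPM in knockout libraries 31, 32 and 40. Rsad2, an interferon-induced antiviral enzyme, was at 1.00, 0.590 and 0.825 CPM in wild type and 3.79, 1.41 and 3.43 CPM in knockout. These genes were selected for their likeness to Cish, so a shared order of libraries follows from the choice.

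The nearest profile to Socs3, that of Hpse2, differed by 0.644 and the next, Sh2d1b1, by 0.827.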
